A study of Homo sapiens with 6 samples.

Results

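The genes described here encode the MHC class I heavy chains HLA-B, HLA-C, HLA-E and HLA-F, their light chain B2M, the peptide transporter subunits TAP1 and TAP2, the loading factor TAPBP and the transcriptional co-activator NLRC5. They were taken by symbol from the gene table, and where a symbol had several rows the one with the highest mean FPKM was kept. FPKM is a fragment count scaled by transcript length and sequencing depth, and the depth scaling of the authors was not given in the sources used here. All 9 were found, in 10 of the 57150 rows. The additional row carried the TAP2 symbol under another identifier, ENSG00000250264, and was listed at 0 in both groups. No row lay outside the primary chromosomes, so no alternate MHC haplotype entered the values.

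The samples were K562 cells, an established human erythroleukemia line, harvested 72 h after siRNA transfection. The 3 libraries of the KD group came from cells given siRNAs against both αCP1 and αCP2, which are poly(C)-binding KH-domain proteins, and the 3 libraries of the CTRL group came from cells given control siRNAs. By the study's methods the control siRNAs were not all alike, since some were directed at the unrelated mRNA GLD-2 and another was non-targeting. The table holds 1 FPKM and 1 estimated count per gene for each group, so the values carry no replicate error, no test was possible, and every difference below is between the KD column and the CTRL column as labelled.

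The targeted genes did not separate the columns in the direction of the labels. PCBP1, which encodes αCP1, had an FPKM of 184.1 in the KD column against 187.8 in the CTRL column, and PCBP2, which encodes αCP2, had 530.8 against 342.4. The study reports that it checked the depletion in its cells by mRNA and, with Western blots, by protein. The mRNA values of these columns do not show that depletion, and the reason was not tested. Markers of the labelled cell type were also largely missing. Of 14 erythroid and hematopoietic genes, 11 had a mean FPKM under 1 and 8 were listed at 0 in both columns, among them the erythroid master regulator GATA1. Their summed FPKM was 161.6 in the KD column and 43.4 in the CTRL column, nearly all of it from the embryonic globin HBE1 at 152.9 and 35.4. A list of 8 adherent cell markers, 6 of them epithelial, gave a mixed picture. The keratins KRT18, at 2309 and 1748 FPKM, KRT8, at 1505 and 818.7, and KRT7, at 539.5 and 604.3, were abundant. The defining epithelial markers were low or missing, with EPCAM at 3.94 and 3.26, the cadherin CDH1 at 0.363 and 0.426 and KRT19 listed at 0 in both columns. The mesenchymal genes of the list, VIM and CDH2, had 687.5 and 545.3 FPKM and 10.3 and 10.8 FPKM. The part of cell identity in the values of the class I genes was not tested. With bulk RNA, fewer cells of a type and less RNA per cell cannot be told apart.

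Class I molecules show peptides from inside the cell to CD8 T cells. Proteasomes cut cytosolic proteins into peptides, the TAP1/TAP2 heterodimer pumps them into the endoplasmic reticulum, and tapasin, the product of TAPBP, holds empty heavy chain and β2-microglobulin dimers at the transporter until a peptide is bound. HLA-B and HLA-C are classical heavy chains. HLA-E presents leader peptides of other class I chains to the NK cell receptor NKG2A, and HLA-F is a nonclassical chain of restricted expression. NLRC5 drives transcription of these genes through the RFX complex at the SXY module of their promoters. K562 cells are widely used as NK cell targets because they carry little class I on their surface.

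The promoters are shown because they hold the elements through which these genes are known to be co-regulated. RefSeq promoter sequences (GRCh38.p14) were matched for 7 of the 9 genes, all but HLA-E and NLRC5. The stretches below run 5′ to 3′ on the gene's strand, and capitals mark the matches to TGACGC, the core of the X2-type element, to CCAAT or its reverse complement ATTGG, and to the interferon-stimulated response element core, which is GAAA, any 2 bases, and GAAA, all searched on both strands. The HLA-B, HLA-C and HLA-F stretches cover bases 175 to 41 before the start site, at chr6:31357220-31357354 (minus strand), chr6:31272133-31272267 (minus strand) and chr6:29723259-29723393 (plus strand). That of B2M covers bases 150 to 36 before the start, at chr15:44711367-44711481 (plus strand).
HLA-B: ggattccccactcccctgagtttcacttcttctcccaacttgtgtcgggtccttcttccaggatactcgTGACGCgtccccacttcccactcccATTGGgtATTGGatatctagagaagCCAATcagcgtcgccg
HLA-C: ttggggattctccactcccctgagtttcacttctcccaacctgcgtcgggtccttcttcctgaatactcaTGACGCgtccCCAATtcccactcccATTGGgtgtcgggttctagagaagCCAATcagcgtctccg
HLA-F: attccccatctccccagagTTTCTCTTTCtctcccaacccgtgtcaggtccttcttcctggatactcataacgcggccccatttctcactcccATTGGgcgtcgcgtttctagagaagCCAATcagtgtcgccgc
B2M: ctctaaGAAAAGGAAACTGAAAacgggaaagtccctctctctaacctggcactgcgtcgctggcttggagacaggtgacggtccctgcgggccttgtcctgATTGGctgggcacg

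HLA-B and HLA-C shared the X2-type core and a CCAAT box 56 bases before the start. HLA-F held the CCAAT boxes but no match to the X2-type core. It held an exact match to the interferon core, and HLA-B and HLA-C held none. Imperfect elements were not searched for, so a missing match does not show that an element is missing. In B2M the interferon core matched at overlapping positions that began 144 and 138 bases before the start. Of the 35116 promoters of the same length, 9.14% held the X2-type core, 34.6% a CCAAT box and 3.57% the interferon core, while of the 7 matched genes 3, 5 and 5 held them. The percentages are over single promoters, whereas a gene was counted if any of its promoters matched, so the units differ. The CCAAT box counted for TAP1 lies outside its printed stretch. A match describes these letters only.

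The transporter and tapasin promoters are shown for the same interferon core. They lie at chr6:32853810-32853849 for TAP1, chr6:32838765-32838804 for TAP2 and chr6:33314079-33314103 for TAPBP, each on the minus strand of GRCh38.p14.
TAP1: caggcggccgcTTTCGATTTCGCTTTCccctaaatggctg
TAP2: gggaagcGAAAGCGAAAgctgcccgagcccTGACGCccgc
TAPBP: tggagGAAAGTGAAAGTGAAAggag

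In TAP1 and TAPBP the interferon core matched at overlapping positions, and TAP2 held 1 match followed by an X2-type core. RefSeq lists TAP1 with more than 1 start, and the stretch printed belongs to the one farthest upstream. For every gene shown, the entry with the most interferon core matches was the one printed. The interferon matches in the printed stretches were thus selected for, and nothing is read from their presence there.

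In the deposited values HLA-C was lower in the KD column, HLA-B was lower by less, and HLA-E was higher, while B2M, the transporter and tapasin lay close to equal. HLA-C is on chromosome 6 from 31236526 to 31239907 in GRCh37, the build of the files, on the minus strand, with 8 exons in its reference transcript. It had an FPKM of 22.9 in the KD column and 64.5 in the CTRL column, which was 2.81-fold lower and a log2 ratio of -1.45. Log2 ratios throughout are of FPKM plus a pseudocount of 1 in the KD column over that in the CTRL column, which understates the change of low genes.

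HLA-C was the 1 gene of the 9 at or beyond a log2 ratio of 1 or -1. Of 13741 genes that passed a filter on low values (mean FPKM not under 1), 11.8% passed that fold, with 3.27% at -1 or less and 8.51% at 1 or more. All 9 genes passed the filter, although HLA-F did so narrowly, with a mean of 1.15. The 1 in 9 past the fold was near that background, so it is not a result about the set. Of the 9, 4 had a ratio above 0 and 5 below it, with a median of -0.028 beside 0.015 for all genes, and on count shares the medians were -0.24 and -0.18.

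**Figure D1:**
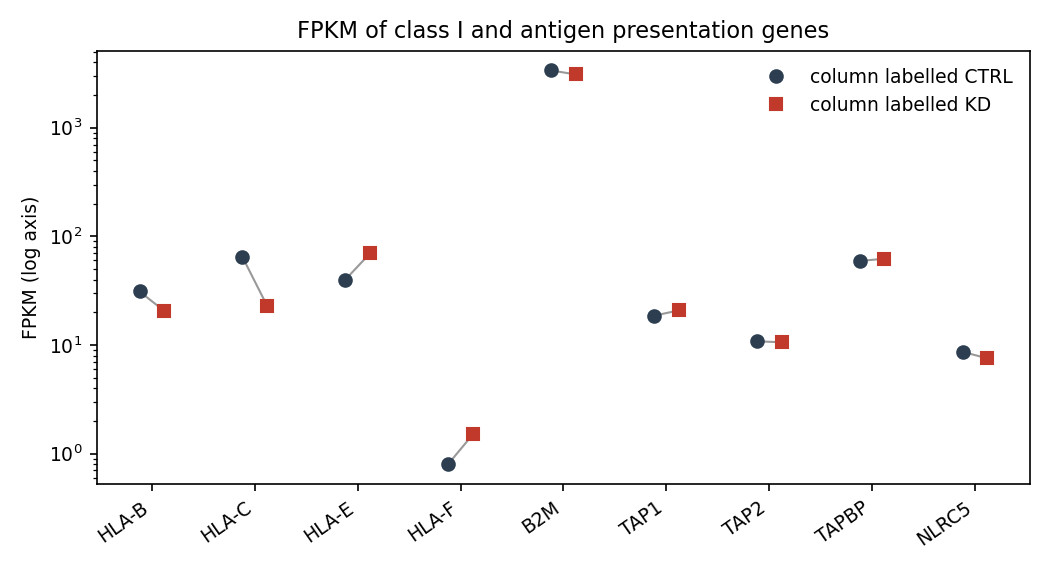
FPKM on a log axis for each gene in the CTRL column (circles) and the KD column (squares), 1 value per column and no error bars. HLA-C is at 64.5 in CTRL and 22.9 in KD and HLA-E at 40.0 and 69.8, while the paired points of B2M, TAP1, TAP2 and TAPBP nearly coincide.

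Behind the HLA-C values stood 223 estimated counts in the KD column and 568 in the CTRL column. As shares of the column totals of 13699340 and 11680567, they gave a log2 ratio of -1.58, with a 95% exact binomial interval of -1.81 to -1.35 that covers counting error only. On count shares 5.84% of all genes lay at -1 or less. The median of all genes moved from 0.015 to -0.18 between the scales, both with 1 added to each value (1 FPKM or 1 CPM). With 1 CPM added HLA-C was at -1.52, or -1.35 relative to that median, and values relative to the median of all genes are on this scale throughout.

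HLA-B lies 85.1 kb from HLA-C by the locus starts of the table, on the same strand. The annotation gives it 31321649 to 31334844 on chromosome 6, and the table's locus ends earlier, at 31325414. Its FPKM was 20.5 in the KD column and 31.1 in the CTRL column, a log2 ratio of -0.58. From 170 and 242 counts, the ratio of shares was -0.74, with an interval of -1.03 to -0.45, which lies below the median of all genes. The 2 classical chains of the set were thus both lower, HLA-C by more, and their counting intervals did not overlap.

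HLA-E, on the plus strand of chromosome 6 from 30457286 to 30461971, went the other way. Its FPKM was 69.8 against 40.0, which was 1.74-fold higher in the KD column and a log2 ratio of 0.79. The 2124 and 1212 counts gave a ratio of shares of 0.58, with an interval of 0.48 to 0.68. HLA-E mRNA stood at 0.620 times the FPKM of HLA-C in the CTRL column and at 3.05 times in the KD column, so their order by FPKM was exchanged.

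HLA-F, from 29690552 to 29706305 on the plus strand, was the lowest of the 9 in both columns, at 1.51 and 0.802 FPKM. The table assigned it only 9.59 and 10.8 counts. FPKM gave a log2 ratio of 0.48 and the counts one of -0.37, with an interval of -1.76 to 1.01, so no direction was detectable at this depth. Counts per unit of FPKM, which follow the transcript length the authors' estimate used, were lower in the KD column by 1.09 on the log2 scale relative to all genes, below the range of -0.36 to 0.35 that held the central genes between percentiles 5 and 95.

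The 4 heavy chains of the set summed to 114.7 FPKM in the KD column and 136.3 in the CTRL column. HLA-C made up 20.0% of that sum against 47.3%, and HLA-E made up 60.8% against 29.3%. HLA-B took 17.9% against 22.8%, and HLA-F took 1.31% against 0.588%. These are shares of the 4 chains alone, not of all class I mRNA.

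**Figure D2:**
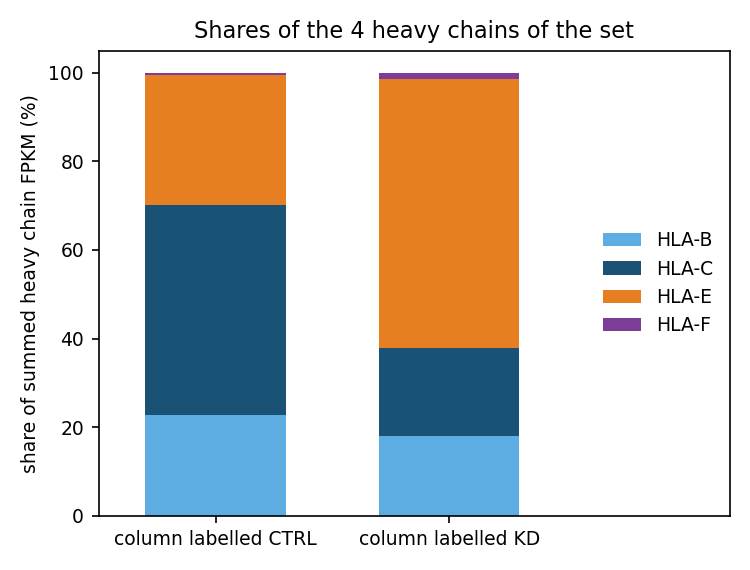
Share of the summed FPKM of the 4 heavy chains of the set (%) taken by each chain in the CTRL and KD columns, 1 value per column. HLA-C has 47.3% and 20.0%, and HLA-E has 29.3% and 60.8%.

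CPM per kilobase of the reference transcript, a scale chosen after the values were seen, put HLA-C at 10.6 in the KD column against 31.5 in the CTRL column and HLA-E at 60.8 against 40.7. The levels differed in the same directions as by FPKM, but the exchange of order did not hold on that scale, where HLA-E stood above HLA-C in both columns. The length implied by count and FPKM was 46.1% of the reference transcript for HLA-C in the KD column and 48.9% in the CTRL column, and 39.3% and 43.4% for HLA-B, against 87.2% and 102% for HLA-E. These lengths take the column totals as the depth, and the authors' own scaling was not given in the sources used here. The totals differ, yet counts per unit of FPKM had a median log2 ratio between the columns of 0.0048. The lengths are therefore not compared between columns. Relative to all genes, counts per unit of FPKM were higher in the KD column by 0.14 for HLA-C, 0.084 for HLA-B and 0.0016 for HLA-E on the log2 scale.

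Reads of the heavy chains can be shared. The coding sequences of HLA-B and HLA-C in the GRCh37 annotation were identical at 92.5% of aligned positions, and HLA-E matched HLA-C at 86.3%. Of the 100-nt windows of the reference transcripts, 12.2% in HLA-C, 9.60% in HLA-B, 5.92% in HLA-E and 2.90% in HLA-F came within 3 mismatches of another class I gene. Exact matches to other annotated genes, overlapping ones included, covered 24.4% of the windows of HLA-F, with HLA-F-AS1 and RPL23AP1 among them, 12.04% of those of HLA-B, in the pseudogene ENSG00000271581, and under 1% of those of HLA-C and HLA-E. Alleles of the cells that differ from the reference genome would also lose reads, and the part of this in the HLA-B and HLA-C levels was not tested. Both columns were mapped to the same reference.

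B2M, the light chain that every class I heavy chain needs, is on chromosome 15 from 45003556 to 45011049. With 3090 FPKM in the KD column and 3366 in the CTRL column it lay above 99.6% and 99.8% of the genes that passed the filter. Its log2 ratio was -0.12, and the 12569 and 14292 counts gave -0.42, with an interval of -0.45 to -0.38, or -0.24 relative to the median of all genes. After adjustment for GC content and length it was at 0.10. The sign thus depended on the scale. The FPKM of B2M was 26.9 times that of the 4 summed heavy chains of the set in the KD column and 24.7 times in the CTRL column. These multiples hold for FPKM only. The length implied for B2M was 31.5% and 38.5% of its reference transcript, against 87.2% and 102% for HLA-E. On CPM per kilobase of the reference transcript B2M was at 973 in the KD column and 1298 in the CTRL column.

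The transporter subunits were nearly level. TAP1, on chromosome 6 from 32812986 to 32821593, had 20.8 FPKM in the KD column and 18.6 in the CTRL column, a log2 ratio of 0.15, and the interval of its count shares ran from -0.21 to 0.15. TAP2, from 32789610 to 32806516, had 10.6 and 10.8 FPKM, a log2 ratio of -0.028, with an interval of count shares from -0.40 to -0.084. TAP1 stood at 1.97 and 1.72 times the FPKM of its partner.

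TAPBP, from 33267471 to 33282061 on the minus strand, was at 62.2 and 59.4 FPKM, a log2 ratio of 0.066, and 2742 and 2615 counts gave an interval of -0.24 to -0.084. Relative to the median of all genes on count shares, TAP1, TAP2 and TAPBP lay at 0.15, -0.064 and 0.014. The annotation overlaps TAP1 with PSMB9 and the antisense RNA PSMB8-AS1, and 18.6% of the 100-nt windows of TAP1 occurred exactly in the latter. For TAP2, 34.7% occurred in the overlapping gene ENSG00000250264, and for TAPBP 38.7% in an antisense RNA, ENSG00000289100. The kit does not mark strand, so sense and antisense reads cannot be told apart for TAP1 and TAPBP. ENSG00000250264 lies on the same strand as TAP2.

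NLRC5, on chromosome 16 from 57023397 to 57117443 with 49 exons, had 7.53 FPKM in the KD column and 8.65 in the CTRL column, a log2 ratio of -0.18. Its 94 and 144 counts gave a wider difference, -0.85, with an interval of -1.24 to -0.46. Counts per unit of FPKM were lower in the KD column by 0.42 relative to all genes, outside the central range given above. The implied transcript length was 13.4% and 21.0% of the 6781 nt of the reference transcript. It again takes the column totals as the depth, so the values are not compared between columns.

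**Figure D3:**
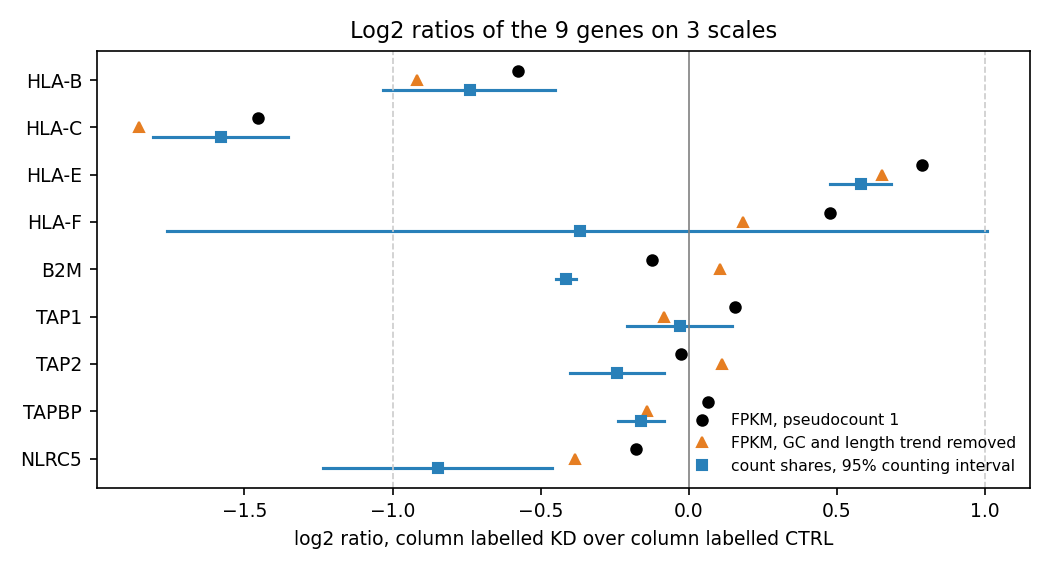
Log2 ratio of the KD column over the CTRL column for the 9 genes from FPKM (circles), from FPKM adjusted for GC and length (triangles), and from count shares with 95% exact binomial intervals (squares and lines). HLA-C and HLA-B lie left of 0 and HLA-E right of 0 on each scale, and the interval of HLA-F spans -1.76 to 1.01.

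The heavy chains are rich in GC, with 60.1% in the HLA-C transcript, 58.9% in HLA-B and 55.1% in HLA-E, against 39.1% in B2M. Across 13298 genes, which are not independent replicates, the log2 ratio was higher at higher GC content (Spearman rho of 0.459). An adjustment that removes a fitted curve in GC and transcript length took HLA-C to -1.86 and HLA-B to -0.92 and left HLA-E at 0.65.

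**Figure D4:**
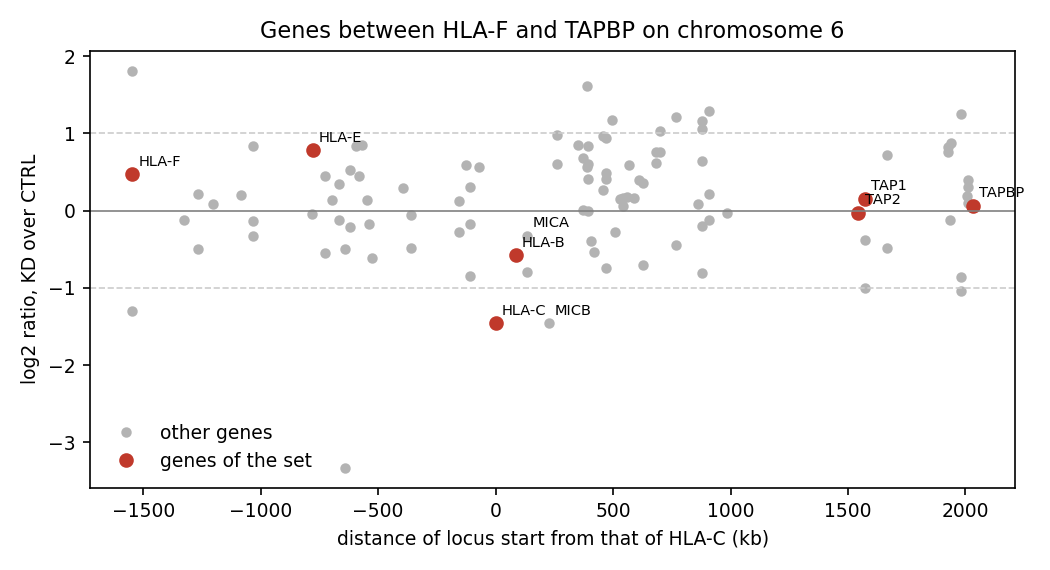
Log2 ratio of each gene past the low-value filter between HLA-F and TAPBP, by the distance of its locus start from that of HLA-C (kb), with dashed lines at 1 and -1. HLA-C at -1.45 and MICB at -1.46 are 2 of 5 points at -1 or less, and 9 points are at 1 or more. LY6G5B and EGFL8 each give more than 1 point. The lowest, PTMAP1 at -3.33, rests on 0 counts in the KD column and 8 in the CTRL column. RPL23AP1, also of the 5, rests on 1.54 and 8.77 counts. With count shares these genes are at -0.75 and -0.65. Of the 9, HCG9P5 rests on 1 and 0 counts.

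The 7 genes of the set on chromosome 6 span the MHC, in which 108 of 294 listed rows from HLA-F to TAPBP passed the filter. Of these, 67 were above 0 and 41 below, where 48.9% of all genes lay below 0. Their median was 0.16, or 0.039 after adjustment for GC and length. At 1 or more there were 9 and at -1 or less 5, beside 8.51% and 3.27% of all genes. LY6G5B and EGFL8 each had more than 1 row, and those of EGFL8 were at 1.16 and -0.81. Among the 14 within 300 kb of HLA-C, a distance chosen after the values were seen, 6 were above 0 and 8 below, with a median of -0.22, or -0.41 adjusted, and 2 were at -1 or less, HLA-C itself and MICB, where 3.27% of all genes were. The window was centred on a gene known to be low, so nothing is read from that count. MICB, a stress-induced ligand of the NK receptor NKG2D, had 20.2 FPKM in the KD column and 57.2 in the CTRL column, from 571 and 1600 counts.

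The remaining genes of the pathway came from lists by role. Of 4 other class I and class I-like genes that passed the filter, all lay below 0 by FPKM, as did 48.9% of all genes. Their median was -0.21, and -0.47 on count shares, where 3 of the 4 lay below the median of all genes. Among the 4, the Fc receptor FCGRT had 5.82 and 6.47 FPKM. Its ratio of count shares was 0.048, with an interval of -0.53 to 0.64. HLA-G, named after its values were seen, was listed at 0 in both columns. Of 6 chaperones and peptidases, 3 were above 0 and 3 below, with a median of -0.045, which was -0.36 on count shares and 0.11 after adjustment for GC and length. The chaperone calreticulin, CALR, was at 696.9 and 685.7 FPKM and calnexin, CANX, at 413.1 and 352.1.

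Of the 8 proteasome genes listed, 6 were above 0 by FPKM, with a median of 0.26, but the median was -0.15 on count shares and -0.025 after adjustment for GC and length, so its sign depended on the scale. The constitutive catalytic subunit PSMB6, at 328.1 and 171.2 FPKM, and PSMB7, at 569.9 and 372.6, were higher in the KD column. The immunoproteasome subunits PSMB8 and PSMB9 were named after their values were seen, because they share a table locus with TAP1. PSMB8 had 26.9 and 24.4 FPKM, and PSMB9 had 4.31 and 5.90.

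Of 17 promoter-binding and interferon signalling factors, 3 were above 0 and 14 below, with a median of -0.42, where 48.9% of all genes lay below 0. None reached a log2 ratio of 1 in either direction by FPKM. On count shares the median was -0.62, and after adjustment for GC and length it was -0.23 with 13 below 0. With count shares STAT2, at -1.13, and CREB1, at -1.06, did pass -1, as did 5.84% of all genes. On that scale HFE, at -1.10 among the class I-like genes, and UGGT1, at -1.09 among the chaperones and peptidases, passed it too. STAT2, CREB1, HFE and UGGT1 were named after their values were seen. The RFX subunit RFXANK had 94.6 and 132.8 FPKM, a log2 ratio of -0.49, and the kinase JAK1 had 39.6 and 52.5, a log2 ratio of -0.40. RFX5, named after its values were seen and the DNA-binding subunit of the RFX complex, had 18.7 and 28.0 FPKM.

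**Figure D5:**
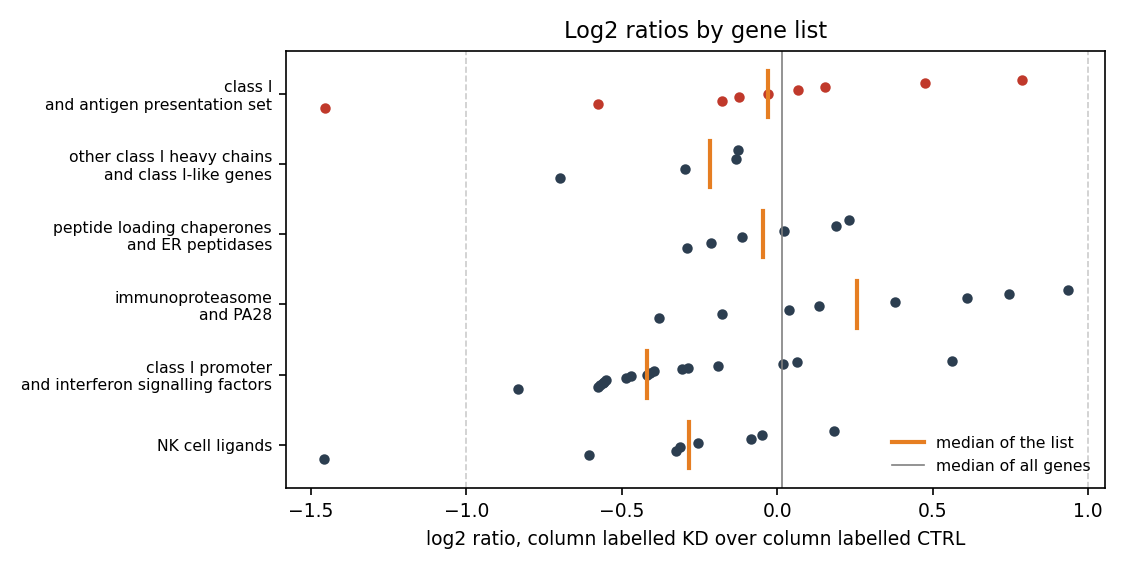
Log2 ratio of each gene that passed the filter, by list, with the median of the list (bar) and of all genes (line). The 17 promoter and interferon signalling factors have a median of -0.42, the 8 proteasome genes one of 0.26 and the set of 9 one of -0.028.

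Of 8 ligands of NK receptors that passed the filter, 7 were below 0, with a median of -0.28, which was -0.50 on count shares and -0.32 adjusted. MICB was the 1 gene of these 8 at -1 or less, at -1.46, beside 3.27% of all genes by FPKM and 5.84% on count shares. The ratio of its count shares was -1.72, with a counting interval of -1.86 to -1.58. MICA had 62.1 and 78.0 FPKM and the nectin PVRL2 had 51.9 and 55.1. Class II genes were nearly absent. Of 9 listed, 7 were at 0 in both columns and 8 had a mean FPKM under 1. HLA-DMA, a subunit of the class II peptide editor, was the 1 that passed, at 2.45 and 1.09 FPKM from 22 and 14 counts.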

How the data were processed

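The authors sequenced TruSeq libraries, whose kit does not mark strand, and the submitters' processing notes name TopHat 1.4.1, Cuffdiff 2.2.0 and hg19. FPKM values were made by the authors against Ensembl transcripts. The deposited table gives 1 FPKM and 1 estimated count per gene and group, and how the 3 libraries were combined is not given in the sources used here. Estimated counts, which need not be whole, were rounded for intervals. Columns holding the authors' fold changes, p-values and group averages were not used.

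Ratios were taken as log2 of FPKM plus 1, KD over CTRL, and counted over genes whose mean FPKM was not under 1. The 95% exact binomial (Clopper-Pearson) intervals cover counting error only. The set of genes, the lists and the alternatives were chosen with earlier results of these data known. Genes named are all of the set and, per list, those past a log2 ratio of 1 in either direction and the 2 of highest mean FPKM, unless stated. Transcripts, positions and GC content came from GENCODE release 44 on GRCh37. Alternatives were a pseudocount of 0.1, count shares with 1 CPM added, an adjustment that subtracts a fitted quadratic in GC and log2 transcript length, centring on the median, summing rows, no filter, and a stricter filter (either FPKM above 5). Heavy chain shares over the set alone and counts per reference kilobase were added after the data were seen, and some genes of the lists are not reported here. The functions were tested on simulated data. Intervals came from scipy 1.17.1, alignments from Biopython 1.88 and plots from matplotlib 3.10.9, run with pandas 2.3.3 in Python 3.11.15.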

Additional observations from a re-analysis of the deposited data

How the results depend on the processing

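Of 37 alternative values for the 9 genes, 25 moved by no more than the longer arm of the gene's counting interval, and 12 moved by more. That arm runs from the ratio of shares to the farther end of its interval. All 12 came from count shares or from the GC and length adjustment. Centring, the smaller pseudocount and summing rows could shift most of these genes only a little, so the 25 do not measure robustness. No gene past a log2 ratio of 1 changed sign. HLA-C ranged from -1.86 to -1.45, HLA-B from -0.92 to -0.58, HLA-E from 0.57 to 0.80 and NLRC5 from -0.76 to -0.18, while HLA-F, B2M, TAP1, TAP2 and TAPBP had values on both sides of 0. With the GC and length trend removed, the log2 ratio was -0.92 for HLA-B, -1.86 for HLA-C, 0.65 for HLA-E, 0.10 for B2M, -0.083 for TAP1 and -0.14 for TAPBP. With counts divided by the column totals it was 0.57 for HLA-E, -0.41 for B2M, -0.030 for TAP1, -0.24 for TAP2, -0.16 for TAPBP and -0.76 for NLRC5. The median of the chaperones and peptidases was -0.36 on that scale, and that of the promoter and interferon factors -0.62, or -0.23 with the trend removed. The cause was not tested. Over all genes, 1169 were at 1 or more and 450 at -1 or less, so 72.2% of those past the fold were higher. With counts divided by the column totals the numbers were 641 and 803 (44.4% higher), and with the trend removed 753 were higher (65.5% of those past the fold). At -1 or less there were 791 with a pseudocount of 0.1, and 292 when either FPKM had to exceed 5, where fewer genes are counted. No paired analysis was possible because each gene has a single value per group, and for the same reason no library could be left out. No row lay off the primary chromosomes, so that alternative gave no value. Depth limits HLA-F, with about 10 and 11 counts.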
